A study of Mus musculus with 6 samples.

Results

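The interferon-inducible GTPases described here were 10 mouse genes chosen by symbol: 5 guanylate-binding proteins (Gbp2, Gbp3, Gbp4, Gbp5 and Gbp7) and 5 immunity-related GTPases (Irgm1, Irgm2, Igtp, Iigp1 and Ifi47). All 10 were found among the 35602 genes of the count table, which covered replicates 2 and 3 of each group, and among the 34714 genes of each table of the replicate 1 pair. Splenic mouse CD4+ T cells were stimulated through CD3 and CD28 for 72 h and received either MAPK13-IN-1, a small-molecule inhibitor of the kinase encoded by Mapk13, or its solvent DMSO, with 3 RNA-seq libraries made for each group. The question addressed was how blocking this kinase changes the transcripts of activated CD4+ T cells. For replicates 2 and 3 the labels gave wild-type genotype and 17.1 µM inhibitor or DMSO added after day 1 of stimulation, whereas the design text of the series describes inhibitor or DMSO during the 72 h of stimulation. The labels gave no dose or genotype for the replicate 1 pair, and no strain or age for any library. Library preparation differed, since replicates 2 and 3 used poly-T beads and a stranded mRNA kit served for the replicate 1 pair.

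Guanylate-binding proteins are large dynamin-like GTPases, and immunity-related GTPases are a smaller family. Both are switched on in most cell types by interferon-gamma through kinases of its receptor and transcription factors such as IRF1, and they gather on vacuoles that hold intracellular pathogens and break them open. In T cells they are part of the interferon-gamma response that accompanies activation, and the immunity-related GTPase Irgm1 is known to protect dividing lymphocytes.

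In the count table the DMSO libraries summed to 26874805 and 28487403 counts, and those with MAPK13-IN-1 to 33854760 and 32617702. Levels in these 4 libraries are counts scaled to library size with TMM factors (CPM), and 3 counts corresponded to between 0.0845 and 0.116 CPM. The deposited values of the replicate 1 pair are read as FPKM, fragments scaled to transcript length and library size, which was judged from the values since no unit is named in the tables. With 1 library per group that pair has no replicate check and no test.

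The labelled cell type was checked first. Of 10 CD4 T cell markers, 9 were found by symbol, and their levels summed to 1769 and 1798 CPM in the DMSO libraries and 997 and 1117 CPM in the MAPK13-IN-1 libraries. The list was thus lower in both inhibitor libraries, with 8 of 9 genes called lower, 0 called higher and a median log2 fold change of -1.26. Over all genes tested, 31.5% were called higher and 32.3% lower, the background for the counts of this and the other marker lists. Cd4 itself was at 275 and 276 CPM with DMSO and 267 and 283 CPM with MAPK13-IN-1, and Cd5, the most abundant gene of the list with DMSO but not with the inhibitor, was at 426 and 439 CPM and 154 and 200.1 CPM. The log2 fold change was -1.26 for Cd2, -1.56 for Cd3g, -1.63 for Thy1 and -1.29 for Cd5. The same list summed to 1371 FPKM with DMSO and 1391 FPKM with MAPK13-IN-1 in the replicate 1 pair, where 5 of 9 genes were lower and 4 higher. Cd5 fell there from 262 to 193 FPKM and Cd2 from 241 to 193 FPKM, while Thy1 rose from 92.7 to 213 FPKM. T cell transcripts were therefore present in all 6 libraries, and their sum fell in the count table without a fall of Cd4.

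Markers of other blood cells were also counted. Of 12 B cell markers, 10 were found by symbol and tested, 7 were called higher, 2 lower and 1 was not called (median log2 fold change 0.40), with sums of 1142 and 1119 CPM in the DMSO libraries and 1311 and 1334 CPM in the MAPK13-IN-1 libraries. Pax5, the most abundant B cell marker by the mean of all 4 libraries, was at 178 and 168 CPM with DMSO and 263 and 271 CPM with MAPK13-IN-1, and none of the 10 was at 0. B cell transcripts were thus plentiful in the count table. The log2 fold change was 1.07 for Blk, 0.62 for Pax5, 0.67 for Ms4a1 and 0.74 for Ebf1. The B cell list summed to only 52.3 FPKM with DMSO and 36.5 FPKM with MAPK13-IN-1 in the replicate 1 pair. For splenic cells the paper's methods name a mouse CD4 T cell isolation kit. B cells also express interferon-inducible GTPases, and the part of B cell transcripts in the results below was not tested. In bulk RNA, fewer cells of a type and less RNA per cell cannot be told apart.

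Of 12 macrophage and monocyte markers, all were counted and 10 were tested, with 8 called higher and 0 lower (median log2 fold change 1.32). Their sums were 107 and 102 CPM in the DMSO libraries and 166 and 156 CPM in the MAPK13-IN-1 libraries, led by Mpeg1, which B cells also express, at 63.4 and 58.2 CPM and 69.5 and 75.8 CPM. The Mpeg1 log2 fold change was 0.26 and lost its call without DMSO replicate 3 (0.19). Defining macrophage genes were scarce: Adgre1 had 14 and 11 counts with DMSO and 108 and 79 counts with MAPK13-IN-1, and Lyz2 had 16 and 17 counts and then 195 and 112 counts. Cd68 and Cybb had log2 fold changes of 1.44 and 0.68. This list, in the replicate 1 pair, summed to 5.94 FPKM with DMSO and 16.4 FPKM with MAPK13-IN-1. Of 10 dendritic cell markers, 6 were tested, 4 were called higher and 1 lower (median 1.33), and the sums were 113 and 115 CPM with DMSO and 131 and 125 CPM with MAPK13-IN-1, mostly Bst2 at 67.7 and 69.9 CPM and 69.5 and 72.0 CPM, a gene that activated T cells also express and that was called only with library totals alone (0.16). The log2 fold change was -3.19 for Batf3, 1.45 for Zbtb46, 1.67 for Flt3 and 1.21 for Itgax, and Cd209a had 0 counts in all 4 libraries. The dendritic cell list summed to 77.6 FPKM and 126 FPKM in the replicate 1 pair.

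Of 10 neutrophil markers, only Mpo passed the filter on low counts, with 2 counts in each DMSO library and 17 and 16 counts with MAPK13-IN-1, and it was called higher by edgeR but not by DESeq2. The list summed to 0.504 and 0.441 CPM with DMSO and 0.845 and 0.974 CPM with MAPK13-IN-1, and S100a9 had 0 counts in all 4 libraries. Of 10 CD8 and NK cell markers, 6 were tested, 1 was called higher and 3 lower (median -0.52), with sums of 36.8 and 37.9 CPM with DMSO and 14.0 and 17.4 CPM with MAPK13-IN-1. Klrk1 was the gene called higher, at a log2 fold change of 0.81, and lost its call without DMSO replicate 3 (0.72) and in DESeq2. Nkg7, the most abundant gene of this list with DMSO but not with the inhibitor and one that activated CD4 T cells can express, was at 21.5 and 22.8 CPM with DMSO and 2.93 and 4.16 CPM with MAPK13-IN-1. Cd8a and Cd8b1 had log2 fold changes of -1.41 and -0.60, and Klra8 had 0 counts in all 4 libraries. Of 8 erythroid markers, 6 were tested and 5 were called higher, 0 lower (median 3.64), with sums of 7.83 and 7.43 CPM with DMSO and 89.8 and 64.5 CPM with MAPK13-IN-1 and Hbb-bs as the most abundant gene with MAPK13-IN-1. The log2 fold change was 3.80 for Hbb-bs, 3.48 for Hbb-bt, 4.15 for Hba-a1 and 3.98 for Hba-a2. By FPKM in the replicate 1 pair, the neutrophil list summed to 0.756 and 0.455 FPKM, the CD8 and NK cell list to 17.8 and 125 FPKM, and the erythroid list to 0.928 and 1.93 FPKM, DMSO first. These markers were counted in cells for which the paper names a CD4 T cell isolation kit. The part of all these cell types in the results on the GTPases was not tested.

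The 10 GTPase genes did not move as a block with MAPK13-IN-1. In the count table, 5 of the 10 were called higher (Gbp3, Gbp4, Gbp7, Irgm1 and Ifi47) and 4 were called lower (Gbp2, Irgm2, Igtp and Iigp1), while Gbp5 was not called. The calls of Gbp2 and Irgm2 were lost, and Gbp5 was called higher, when libraries were scaled by their totals alone. A call here is an adjusted p under 0.05 by the quasi-likelihood test of edgeR, with Benjamini-Hochberg adjustment across the 16269 genes tested, 2 libraries against 2. Among all genes tested, 31.5% were called higher and 32.3% lower, so calls in both directions were frequent throughout the transcriptome. The median log2 fold change was 0.32 over the 10 members and 0.012 over all genes tested. Together the 10 genes took 0.245% and 0.243% of all counts in the DMSO libraries and 0.298% and 0.294% in the MAPK13-IN-1 libraries. Their summed level was 2556 and 2545 CPM with DMSO and 2839 and 2833 CPM with MAPK13-IN-1, so both inhibitor libraries lay above both DMSO libraries.

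**Figure D1:**
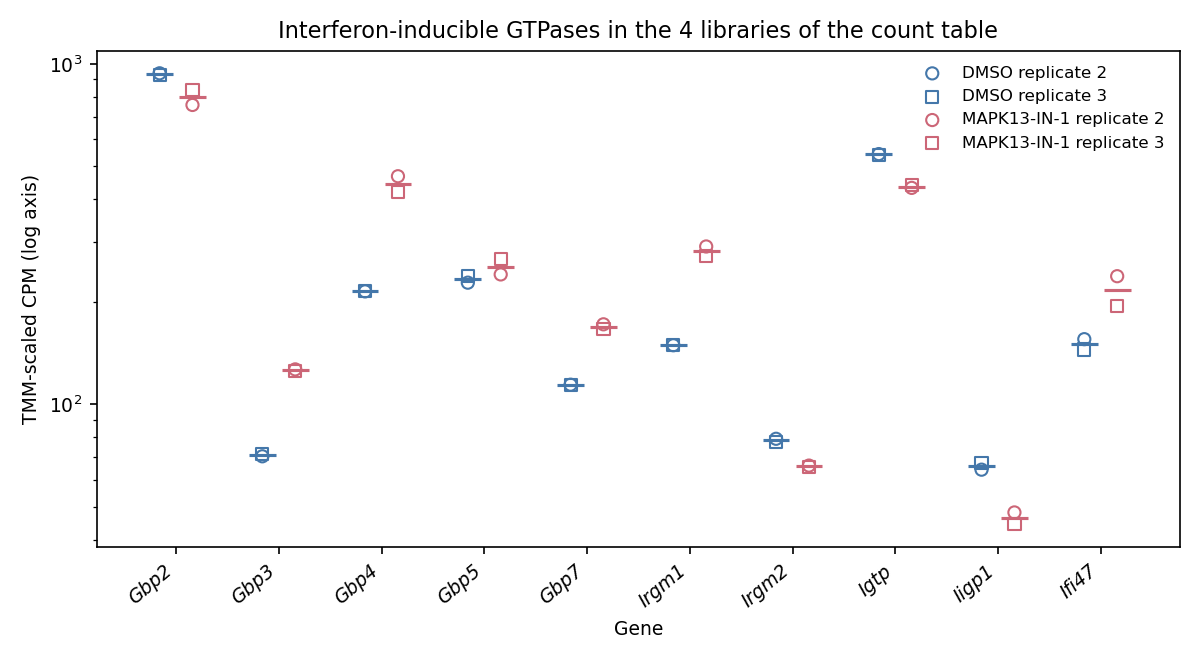
TMM-scaled CPM (log axis) of the 10 GTPase genes in each of the 4 libraries of the count table, with circles for replicate 2, squares for replicate 3 and a line at each group mean. The groups lie closest at Gbp5, and Gbp2 is the gene with the highest CPM in every library.

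Among the guanylate-binding proteins, Gbp2, a prenylated member that coats pathogen vacuoles, had the most counts. Its level was 938 and 926 CPM in the DMSO libraries and 757 and 837 CPM in the MAPK13-IN-1 libraries. Both inhibitor libraries were lower than both DMSO libraries, and they differed more from each other than the DMSO libraries did. For Gbp2, the edgeR log2 fold change was -0.23, with a standard error of 0.0557 and a Benjamini-Hochberg adjusted p of 0.00486 by the quasi-likelihood test, and the log2 fold change was -0.10 with an adjusted p of 0.12 in edgeR when libraries were scaled by their totals alone. The 95% interval of the main estimate ran from -0.35 to -0.10, a fall of modest size.

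Gbp3, a less studied relative encoded nearby, stood at 70.4 and 71.4 CPM with DMSO and 127 and 125 CPM with MAPK13-IN-1. Its libraries lay close together within each group and far apart between groups. For Gbp3, the edgeR log2 fold change was 0.83, with a standard error of 0.0604 and a Benjamini-Hochberg adjusted p of 1.27e-06 by the quasi-likelihood test, a 1.78-fold rise. Gbp7, which is known to link oxidative and autophagic killing of bacteria, stood at 114 and 114 CPM with DMSO and 172 and 166 CPM with MAPK13-IN-1. Both inhibitor libraries were again above both DMSO libraries, by 1.48-fold. For Gbp7, the edgeR log2 fold change was 0.56, with a standard error of 0.0573 and a Benjamini-Hochberg adjusted p of 1.23e-05 by the quasi-likelihood test. Under every alternative listed in the methods Gbp3 and Gbp7 kept their higher call, with log2 fold changes from 0.81 to 0.95 and from 0.54 to 0.69.

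Gbp5, which promotes assembly of the NLRP3 inflammasome, stood at 228 and 238 CPM with DMSO and 241 and 266 CPM with MAPK13-IN-1. The highest DMSO library and the lowest inhibitor library were nearly level, so the groups were barely separated. For Gbp5, the edgeR log2 fold change was 0.12, with a standard error of 0.0628 and a Benjamini-Hochberg adjusted p of 0.112 by the quasi-likelihood test, with a 95% interval from -0.017 to 0.26 that includes 0. The Gbp5 estimate rested on the library and scaling used. It was 0.19 and called without MAPK13-IN-1 replicate 2, 0.04 and not called without MAPK13-IN-1 replicate 3, and 0.25 with library totals alone (adjusted p = 0.00429 in edgeR). It was also called with upper-quartile scaling (0.20) and with at least 10 counts required in every library (0.17).

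Gbp4, the single member encoded on chromosome 5, rose most of the 10 in the count table. It stood at 215 and 215 CPM with DMSO and 468 and 421 CPM with MAPK13-IN-1. Each inhibitor library held about double the DMSO level, with more spread between the inhibitor libraries. For Gbp4, the edgeR log2 fold change was 1.05, with a standard error of 0.0609 and a Benjamini-Hochberg adjusted p of 3.04e-07 by the quasi-likelihood test, a 2.07-fold rise, and the log2 fold change stayed between 0.97 and 1.17 under the alternatives.

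The immunity-related GTPases include regulatory members that hold the effector members in the inactive state on the cell's own membranes. Irgm1, a regulatory member found on lysosomes and the Golgi, stood at 149 and 149 CPM with DMSO and 291 and 273 CPM with MAPK13-IN-1. The DMSO libraries were almost identical and both inhibitor libraries were well above them. For Irgm1, the edgeR log2 fold change was 0.92, with a standard error of 0.0572 and a Benjamini-Hochberg adjusted p of 4.65e-07 by the quasi-likelihood test, a 1.89-fold rise that stayed called under every alternative. Irgm2, a second regulatory member, stood at 79.2 and 77.6 CPM with DMSO and 66.1 and 65.3 CPM with MAPK13-IN-1. Its inhibitor libraries were slightly lower than its DMSO libraries, in contrast to Irgm1. For Irgm2, the edgeR log2 fold change was -0.25, with a standard error of 0.0641 and a Benjamini-Hochberg adjusted p of 0.00543 by the quasi-likelihood test, and its lower call was lost with library totals alone (-0.13, adjusted p = 0.105 in edgeR) and without DMSO replicate 2 (-0.25). Igtp, the third regulatory member, also named Irgm3 and placed on the endoplasmic reticulum, stood at 543 and 541 CPM with DMSO and 432 and 440.0 CPM with MAPK13-IN-1. Libraries of one group were tightly grouped and the inhibitor libraries were lower, by 1.24-fold. For Igtp, the edgeR log2 fold change was -0.31, with a standard error of 0.0485 and a Benjamini-Hochberg adjusted p of 0.000239 by the quasi-likelihood test, and the lower call held under every alternative, with -0.19 as the value nearest 0.

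The balance among the regulatory members therefore shifted, and ratios of counts within a library show this without any scaling between libraries. The ratio of Irgm1 counts to Irgm2 counts was 1.88 and 1.92 with DMSO and 4.399 and 4.17 with MAPK13-IN-1. Irgm1 thus gained on Irgm2 in both inhibitor libraries. The ratio of Irgm1 counts to Igtp counts was 0.275 and 0.276 with DMSO and 0.673 and 0.62 with MAPK13-IN-1. For the replicate 1 pair the FPKM ratio of Irgm1 to Irgm2 was 2.46 with DMSO and 4.05 with MAPK13-IN-1, and that of Irgm1 to Igtp was 0.278 and 0.373. Both ratios were higher with the inhibitor in either set of libraries. Among the guanylate-binding proteins, the count ratio of Gbp4 to Gbp2 was 0.229 and 0.232 with DMSO and 0.618 and 0.504 with MAPK13-IN-1, but the FPKM ratio of the replicate 1 pair was 0.288 and then 0.255. That ratio moved up in the count table and down in the replicate 1 pair. The ratios of Gbp7, Gbp3 and Gbp5 to Gbp2 moved up in both sets of libraries. In the pair these went from 0.0433 to 0.0575, from 0.0536 to 0.0652 and from 0.182 to 0.349.

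The effector immunity-related GTPases are loaded onto pathogen vacuoles. Iigp1, also named Irga6 and the best studied effector, had the lowest level per kilobase of the 10 genes in the count table and stood at 64.3 and 67.2 CPM with DMSO and 48.2 and 44.4 CPM with MAPK13-IN-1. Both inhibitor libraries were below both DMSO libraries, by 1.42-fold. For Iigp1, the edgeR log2 fold change was -0.51, with a standard error of 0.0741 and a Benjamini-Hochberg adjusted p of 0.000166 by the quasi-likelihood test, the largest fall among the 10, and the call held under every alternative with values from -0.56 to -0.38. Ifi47, also named Irgd, stood at 155 and 145 CPM with DMSO and 238 and 195 CPM with MAPK13-IN-1. Its inhibitor libraries were both higher but unequal, with the widest relative spread of the 10 genes. For Ifi47, the edgeR log2 fold change was 0.53, with a standard error of 0.0868 and a Benjamini-Hochberg adjusted p of 0.00037 by the quasi-likelihood test, and the log2 fold change was 0.38 without MAPK13-IN-1 replicate 2 and 0.66 without MAPK13-IN-1 replicate 3, called in both cases. Iigp1 and Ifi47 thus moved in opposite directions in the count table, whereas their log2 ratios in the replicate 1 pair were 0.15 and 0.014.

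The replicate 1 pair gave a different picture for several members. Gbp5 had 29.8 FPKM with DMSO and 82.6 FPKM with MAPK13-IN-1, a log2 ratio of 1.44 on the FPKM + 1 scale, which understates changes of low values. Gbp7 had 7.08 FPKM with DMSO and 13.6 FPKM with MAPK13-IN-1, and Gbp3 had 8.77 FPKM with DMSO and 15.5 FPKM with MAPK13-IN-1. These 3 of 10 members were at least 1.5-fold higher on that scale, against 17% of the 11510 genes with at least 1 FPKM in a library, and 0 of 10 were at least 1.5-fold lower, against 7.53%. Gbp2 had 163 FPKM with DMSO and 237 FPKM with MAPK13-IN-1, so it was higher with the inhibitor here and lower in the count table. Gbp4 had 47.0 FPKM with DMSO and 60.5 FPKM with MAPK13-IN-1, and Irgm1 had 52.8 FPKM with DMSO and 71.1 FPKM with MAPK13-IN-1. Both were higher in the inhibitor library, as they were in the count table, with log2 ratios of 0.36 and 0.42. Irgm2 had 21.5 FPKM with DMSO and 17.6 FPKM with MAPK13-IN-1, the one member lower in this pair. Iigp1 had 32.0 FPKM with DMSO and 35.7 FPKM with MAPK13-IN-1. Igtp had 189.9 and 191 FPKM, and Ifi47 had 92.7 and 93.6 FPKM, DMSO first. The last pair of genes was nearly level between the libraries. The median log2 ratio was 0.39 over the members and 0.079 over all genes with at least 1 FPKM. The difference between the sets of libraries was not tested.

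**Figure D2:**
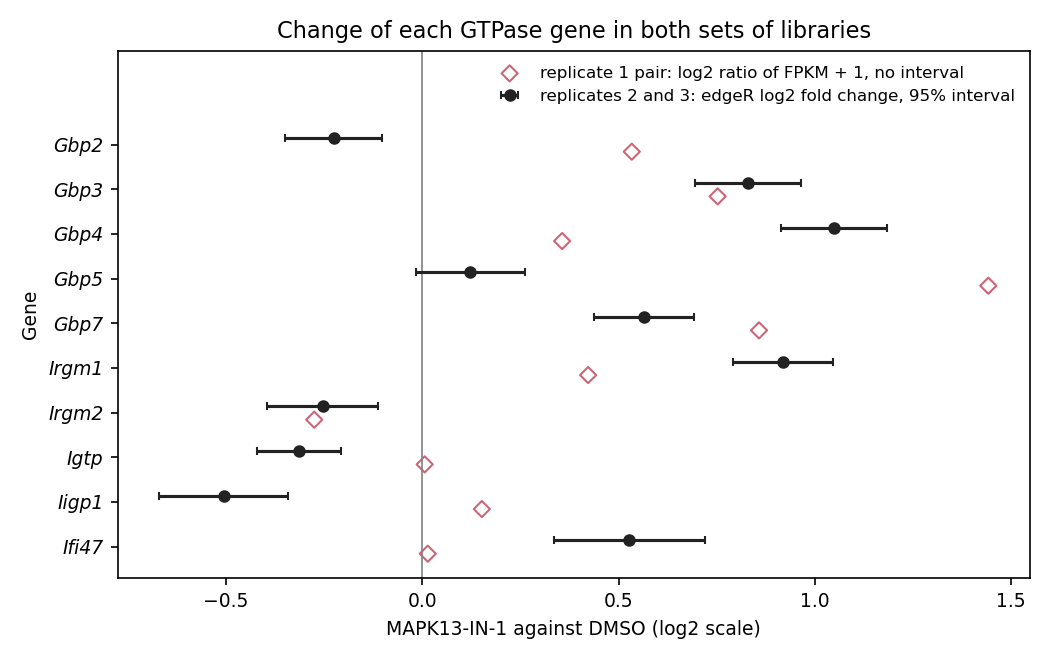
Change of the 10 GTPase genes with MAPK13-IN-1 against DMSO on a log2 scale: filled points are edgeR log2 fold changes of replicates 2 and 3 with 95% intervals (2 libraries per group), and open diamonds are log2 ratios of FPKM + 1 in the replicate 1 pair, which has no interval. Gbp5 reaches 1.44 in the pair against 0.12 in the count table, and Gbp2 lies on opposite sides of 0 (its lower call is lost with library totals alone).

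Levels of different genes are compared per kilobase of annotated exon, with mean ± SD over 2 libraries. Gbp2 at 370.3 ± 3.43 and Igtp at 268 ± 0.674 CPM per kilobase formed the top of the DMSO libraries. Ifi47 came next at 60.7 ± 3.01, then Gbp5 at 35.1 ± 1.13, Gbp4 at 28.7 ± 0.0295 and Irgm1 at 25.7 ± 0.00523. Gbp3 at 21.7 ± 0.229 and Irgm2 at 21.2 ± 0.315 did not differ by more than the sum of their SDs. Gbp7 at 20.3 ± 0.00491 and Iigp1 at 11.3 ± 0.35 closed the order. With MAPK13-IN-1 the first 3 places were the same, with Gbp2 at 317 ± 22.4, Igtp at 216 ± 2.73 and Ifi47 at 87.5 ± 12.3 CPM per kilobase. Gbp4 at 59.3 ± 4.36 and Irgm1 at 48.5 ± 2.20 came above Gbp5 in these libraries. Gbp3 at 38.6 ± 0.297 and Gbp5 at 38.2 ± 2.74 lay within the sum of their SDs, and Gbp7 at 30.1 ± 0.717, Irgm2 at 17.8 ± 0.146 and Iigp1 at 7.95 ± 0.45 followed. In the replicate 1 pair, whose FPKM values are per length, Igtp, Gbp2 and Ifi47 led with DMSO, and Gbp2, Igtp and Ifi47 led with MAPK13-IN-1. Gbp7 was the lowest in both libraries of that pair, while Iigp1 was the lowest in the count table.

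The members lie in a few clusters, given here on GRCm38 from the GENCODE M21 annotation, the build named for all 6 libraries. On chromosome 3, Gbp5 (chr3:142493978-142522344), Gbp7 (chr3:142530342-142550149), Gbp3 (chr3:142560026-142573209) and Gbp2 (chr3:142620602-142638008) follow one another on the plus strand, with Gbp2b between Gbp3 and Gbp2. Gbp7 and Gbp3, which rose, are direct neighbours, whereas Gbp2 at the end of the cluster had a lower call that was lost with library totals alone. Gbp4 (chr5:105115767-105139586, minus strand) lies in a cluster on chromosome 5 in which all 5 counted guanylate-binding protein genes were called higher. Of all genes tested, 31.5% were called higher. Counts of Gbp6 and Gbp10 are uncertain, since 67.3% and 77.8% of their stretches of 75 bases occur in another gene. Log2 ratios in the replicate 1 pair were 0.36 for Gbp4, 0.37 for Gbp8, 0.092 for Gbp6, 0.089 for Gbp9 and 0.047 for Gbp10. The median there over all genes with at least 1 FPKM was 0.079. On chromosome 11, Irgm1 (chr11:48861968-48871683, minus strand) and Ifi47 (chr11:49076587-49096974, plus strand) are in one cluster and Igtp (chr11:58199556-58207591) and Irgm2 (chr11:58199618-58222782), both on the plus strand, in another. Iigp1 (chr18:60376027-60392634, plus strand) is on chromosome 18.

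**Figure D3:**
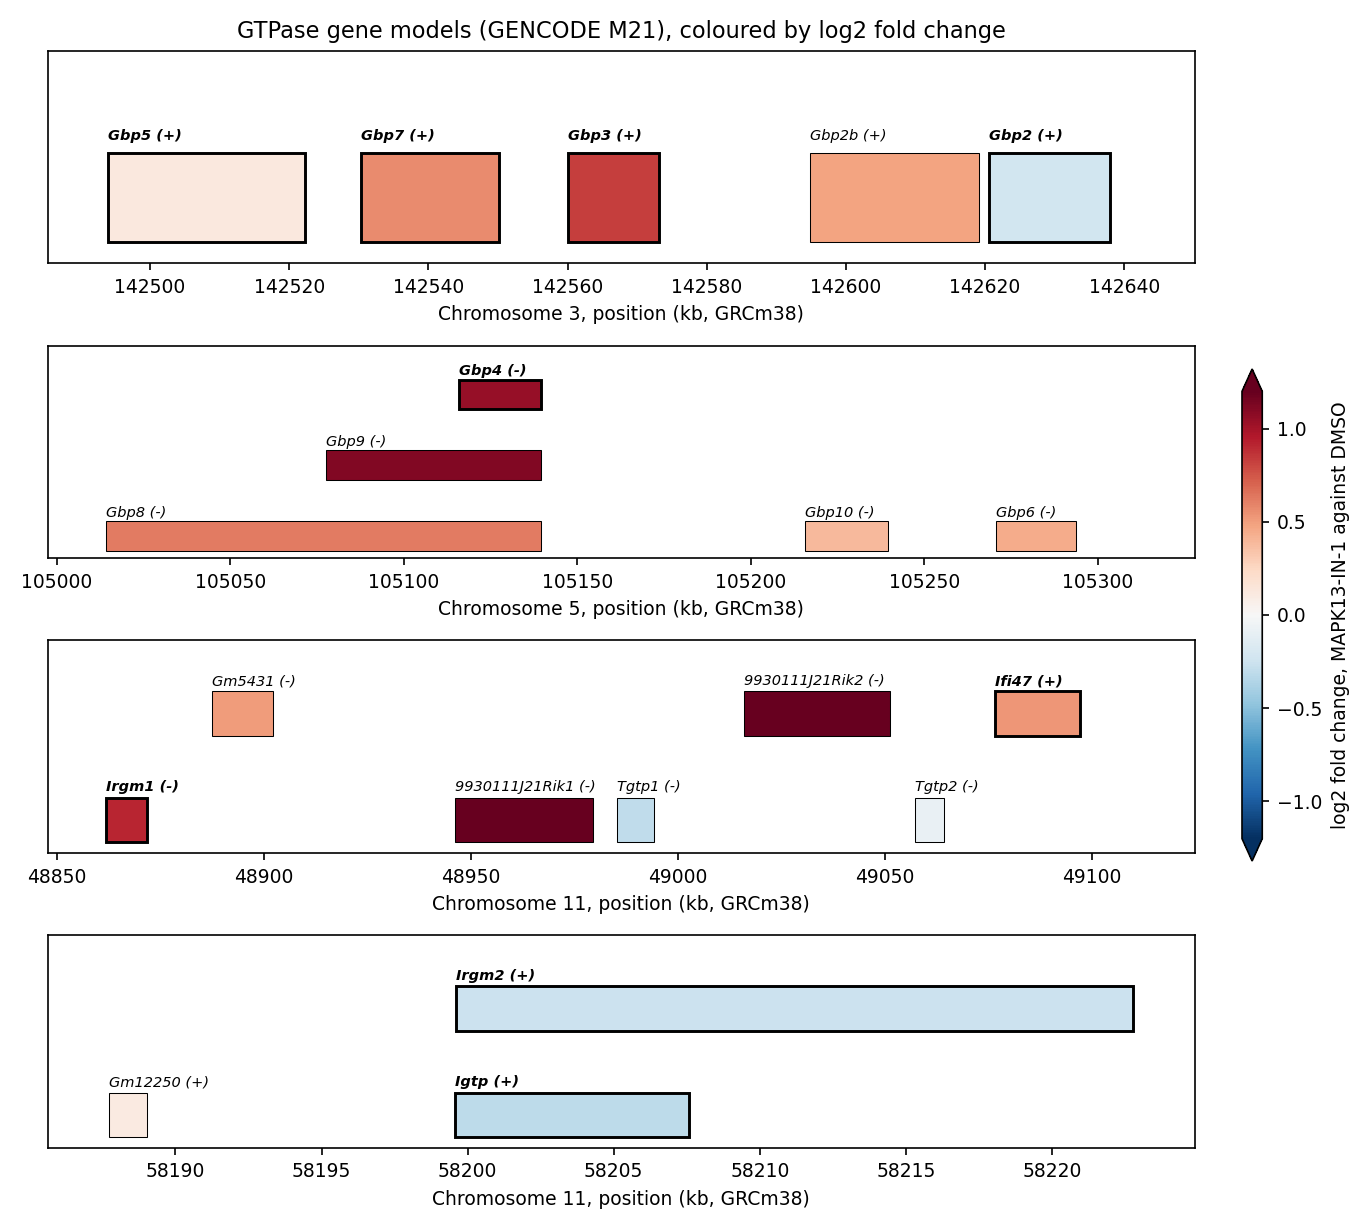
GTPase gene models on chromosomes 3, 5 and 11 (position in kb, GRCm38, strand in brackets), drawn as boxes from first to last annotated base and coloured by the edgeR log2 fold change of MAPK13-IN-1 against DMSO, with colours saturating beyond the ends of the bar and thick outlines for the 10 members. All 5 genes on chromosome 5 are red, from 0.39 for Gbp10 to 1.11 for Gbp9, although counts of Gbp6 and Gbp10 are uncertain. Igtp at -0.31 and Irgm2 at -0.25 are blue (Irgm2 is not called with library totals alone).

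Several of these genes cannot be counted with full certainty, because gene models overlap or copies are near-identical. The Igtp and Irgm2 models share 162 exonic bases, 8.01% of Igtp. The Gbp8 and Gbp9 models run over nearly all of Gbp4 and share 61 and 60 exonic bases with it, and the Olfr56 model runs over Ifi47 and shares 111 exonic bases. A processed pseudogene, Gm43802, covers 637 exonic bases of Gbp7. Stretches of 75 bases were also compared with the transcripts of all other genes. The share of a member's stretches that occurred in another gene was 11.3% for Gbp7, 7.80% for Igtp, 4.78% for Irgm2, 3.08% for Gbp4, 2.06% for Gbp3, 1.55% for Ifi47, 0.955% for Gbp2 and 0.578% for Gbp5. It was 0 for Irgm1 and Iigp1. Most bases of each member were therefore its own, unlike those of several relatives. The share was 77.2% for Tgtp1 and 81.4% for Tgtp2, 67.3% for Gbp6, 77.8% for Gbp10, 76.0% for 9930111J21Rik1, 52.1% for 9930111J21Rik2 and 98.3% for Gvin1, so counts of these genes are uncertain.

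Promoters were examined because interferon-gamma acts on these genes through short DNA elements. RefSeq promoter windows of 300 bases (GRCm38.p6, 250 bases before to 50 after the start) matched 8 of the 10 members by symbol, and Gbp4 and Iigp1 had no entry. The gamma-activated sequence was searched as TTCNNNGAA, which reads the same on both strands, and the interferon-stimulated response element bound by IRF factors as GAAA, any 2 bases and GAAA again on both strands. The first occurred in 4 of 8 members against 8.3% of all 32851 windows, the second in 7 of 8 against 3.44%, and both together in 4 of 8 against 0.454%. A match is a description of letters only. The windows follow RefSeq starts, which differ for some genes from the start of the GENCODE model. The Irgm2 window (chr11:58214727-58215026) lies inside a model that begins at 58199618. Likewise the Gbp5 window (chr3:142496684-142496983) lies inside a model that begins at 142493978.

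The regulatory members, which differed in direction, are shown at their RefSeq starts on chromosome 11 with matches in capitals, 5′ to 3′ on the coding strand: Irgm1 (chr11:48871371-48871670, minus strand), Irgm2 (chr11:58214727-58215026, plus strand) and Igtp (chr11:58199306-58199605, plus strand).
Irgm1: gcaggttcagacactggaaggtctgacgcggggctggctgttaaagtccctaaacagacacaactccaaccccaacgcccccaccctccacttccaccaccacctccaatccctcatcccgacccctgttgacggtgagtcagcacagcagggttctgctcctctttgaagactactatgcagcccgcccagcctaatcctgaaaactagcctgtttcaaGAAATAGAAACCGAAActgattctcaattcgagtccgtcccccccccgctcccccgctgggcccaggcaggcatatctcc
Irgm2: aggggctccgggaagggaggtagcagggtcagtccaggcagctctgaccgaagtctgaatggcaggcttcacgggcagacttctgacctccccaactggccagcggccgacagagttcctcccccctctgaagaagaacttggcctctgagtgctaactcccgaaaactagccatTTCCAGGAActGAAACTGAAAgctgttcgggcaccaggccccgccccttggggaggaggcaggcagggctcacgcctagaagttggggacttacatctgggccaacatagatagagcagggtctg
Igtp: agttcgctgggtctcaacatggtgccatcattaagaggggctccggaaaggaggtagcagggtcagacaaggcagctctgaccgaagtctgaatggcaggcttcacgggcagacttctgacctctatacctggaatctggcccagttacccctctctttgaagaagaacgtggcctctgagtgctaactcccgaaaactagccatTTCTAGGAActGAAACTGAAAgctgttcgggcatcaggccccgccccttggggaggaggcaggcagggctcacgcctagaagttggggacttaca
Irgm2, with a log2 fold change of -0.25 (not called with library totals alone), held TTCCAGGAA followed after 2 bases by GAAACTGAAA. Igtp, with -0.31, held TTCTAGGAA and GAAACTGAAA with the same gap of 2 bases. Irgm1, with 0.92, held no TTCNNNGAA in this window and a pair of overlapping matches, GAAATAGAAA and GAAACCGAAA. The windows of Tgtp1 and Tgtp2, relatives on the same chromosome with log2 fold changes of -0.30 (called lower) and -0.09 (not called, and 0.035 with library totals alone), also had both matches with a gap of 2 bases.

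The guanylate-binding proteins of chromosome 3 are shown in the same way, since they too differed in direction within one cluster: Gbp2 (chr3:142620413-142620712), Gbp3 at its first start (chr3:142559794-142560093), Gbp5 (chr3:142496684-142496983) and Gbp7 (chr3:142530086-142530385), all on the plus strand.
Gbp2: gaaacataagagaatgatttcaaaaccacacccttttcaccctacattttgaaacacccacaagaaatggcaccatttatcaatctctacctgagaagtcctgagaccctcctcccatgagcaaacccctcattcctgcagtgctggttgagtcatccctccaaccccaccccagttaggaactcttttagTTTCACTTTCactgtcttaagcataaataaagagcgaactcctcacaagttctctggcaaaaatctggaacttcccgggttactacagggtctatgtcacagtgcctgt
Gbp3: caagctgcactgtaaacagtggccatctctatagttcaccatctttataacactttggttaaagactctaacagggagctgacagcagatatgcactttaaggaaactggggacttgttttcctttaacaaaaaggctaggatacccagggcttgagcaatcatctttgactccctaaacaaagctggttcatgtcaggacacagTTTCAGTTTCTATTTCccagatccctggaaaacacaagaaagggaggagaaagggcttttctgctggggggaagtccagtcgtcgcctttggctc
Gbp5: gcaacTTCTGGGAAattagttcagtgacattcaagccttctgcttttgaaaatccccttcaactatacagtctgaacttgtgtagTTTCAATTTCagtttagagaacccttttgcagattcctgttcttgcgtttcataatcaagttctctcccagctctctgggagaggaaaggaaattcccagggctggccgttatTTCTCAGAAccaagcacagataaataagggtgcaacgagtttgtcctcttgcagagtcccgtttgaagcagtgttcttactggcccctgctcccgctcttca
Gbp7: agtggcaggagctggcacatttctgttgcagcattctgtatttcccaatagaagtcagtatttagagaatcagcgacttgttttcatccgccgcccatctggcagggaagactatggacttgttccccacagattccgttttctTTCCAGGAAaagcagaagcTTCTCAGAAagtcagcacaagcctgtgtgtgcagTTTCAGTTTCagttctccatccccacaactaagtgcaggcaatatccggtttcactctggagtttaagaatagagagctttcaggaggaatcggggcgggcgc
Gbp2, with a log2 fold change of -0.23 (not called with library totals alone), held the response element once, read on the other strand as TTTCACTTTC. Gbp3, with 0.83, held a pair of overlapping matches, TTTCAGTTTC and TTTCTATTTC, and none at its second annotated start. Gbp7, with 0.56, held TTCCAGGAA, TTCTCAGAA and TTTCAGTTTC. Gbp5, with 0.12 and not called, held TTCTGGGAA, TTTCAATTTC and TTCTCAGAA. Ifi47 held neither motif in its window, which lies at the start of a model that Olfr56 also runs over, and no other start of Ifi47 was searched. Members with both motifs were thus found among those that rose, those called lower and the one not called.

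Other interferon-inducible GTPases were counted for 14 of 17 listed symbols, and 8 were called higher, 1 lower and 5 were not called, with a median log2 fold change of 0.46. The background for this list and those below is 31.5% called higher and 32.3% lower over all genes tested. The list summed to 1099 and 1071 CPM with DMSO and 1598 and 1397 CPM with MAPK13-IN-1. Gbp9, whose gene model overlaps that of Gbp4, stood at 121 and 118 CPM with DMSO and 271 and 244 CPM with MAPK13-IN-1, a log2 fold change of 1.11. The immunity-related gene 9930111J21Rik1 stood at 22.6 and 22.0 CPM and 77.3 and 69.3 CPM (1.72), and its near-copy 9930111J21Rik2 at 11.4 and 10.0 CPM and 29.4 and 25.2 CPM (1.35). Gvin1, a very large GTPase and the most abundant of the list with MAPK13-IN-1 but not with DMSO, stood at 169 and 164 CPM and 338 and 273 CPM (0.87). All 4 were higher in both inhibitor libraries, although the counts of Gvin1 and both Rik genes are uncertain because of shared stretches. In the replicate 1 pair, Gbp9 had 27.6 and 29.5 FPKM, Gvin1 had 10.4 and 18.8 FPKM, and 9930111J21Rik1 had 1.63 and 4.01 FPKM, DMSO first. The median log2 ratio of the list there was 0.27, against 0.079 over all genes with at least 1 FPKM. Without MAPK13-IN-1 replicate 2, 3 genes of the list were called lower, with Tgtp2 at -0.15 and Gm4951 at -0.44 added. The log2 fold change of the closest Gbp2 relative, Gbp2b, was 0.48 and lost its call in DESeq2, without DMSO replicate 2 (0.40) and without MAPK13-IN-1 replicate 3 (0.32).

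Genes of interferon-gamma and its receptor, which act upstream of the GTPases, were examined next, and their part in the GTPase results was not tested. Ifng, the gene of interferon-gamma, had 106 and 145 counts with DMSO and 74 and 86 counts with MAPK13-IN-1, or 4.11 and 5.33 CPM and 2.09 and 2.54 CPM. It was low in all 4 libraries and lower with the inhibitor, at -1.03 on the log2 scale (SE 0.218, adjusted p = 0.00188 by edgeR's quasi-likelihood test). In the replicate 1 pair Ifng had 16.4 FPKM with DMSO and 92.6 FPKM with MAPK13-IN-1, the opposite direction. The receptor genes had 15.3 and 25.8 FPKM (Ifngr1) and 13.5 and 13.4 FPKM (Ifngr2) in that pair, DMSO first. Of 13 ligand and receptor genes, 7 were tested, 3 were called higher, 1 lower and 3 not called, with a median log2 fold change of 0.22. Ifngr1 stood at 42.0 and 40.9 CPM with DMSO and 50.2 and 42.2 CPM with MAPK13-IN-1, and Ifngr2 at 41.8 and 40.5 CPM and 35.1 and 37.7 CPM. Neither receptor chain was called (0.16 and -0.18), but without MAPK13-IN-1 replicate 3 both were, at 0.27 and -0.23, which made 2 genes of the list called lower, and Ifngr1 was also called with library totals alone (0.28) and with upper-quartile scaling (0.24). The type I receptor genes Ifnar1 and Ifnar2 had log2 fold changes of 0.22 and 0.62, and Ifnar1 lost its call without DMSO replicate 2 (0.20) or DMSO replicate 3 (0.22). Ifnlr1, of the lambda receptor, had 0.88, and Il27 had 0.48 and was not called. Ifna1, Ifna2, Ifna4 and Ifnl2 had 0 counts in all 4 libraries. The list had a median log2 ratio of 0.65 in the replicate 1 pair, over 5 genes.

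Of 14 kinases and transcription factors of interferon signalling, all were tested, with 8 called higher, 4 lower and 2 not called, and a median log2 fold change of 0.25. Jak2, a kinase of the interferon-gamma receptor, stood at 456 and 466 CPM with DMSO and 269 and 271 CPM with MAPK13-IN-1 (-0.77), while Jak1, its partner, stood at 334 and 328 CPM and 526 and 471 CPM (0.59). The receptor's kinases thus moved in opposite directions. Irf1, an activator of these GTPases, stood at 401 and 408 CPM with DMSO and 382 and 387 CPM with MAPK13-IN-1, and its log2 fold change of -0.072 was not called and turned to 0.0083 with upper-quartile scaling and 0.053 with library totals alone. In the count table Irf1 therefore changed by less than Gbp4, Irgm1 or Gbp3 did. Its log2 ratio in the replicate 1 pair was -0.43, against 0.36 for Gbp4, 0.42 for Irgm1 and 0.75 for Gbp3. Higher calls went among others to Stat2 (0.27), Stat3 (0.33), Irf2 (0.31), Irf9 (0.24), Ciita (0.42) and Batf2 (1.11), and lower calls to Tyk2 (-0.65), Irf7 (-1.60) and Irf8 (-0.27). Stat2 lost its call without DMSO replicate 2 (0.22), Irf9 without DMSO replicate 2 (0.24) or DMSO replicate 3 (0.21), and Irf8 with library totals alone (-0.15). Nlrc5, the activator of MHC class I genes, had -0.13 and was called only with the replicate block and without MAPK13-IN-1 replicate 3 (-0.21). The median log2 ratio of the list in the replicate 1 pair was 0.37, and Irf1 had 128 FPKM with DMSO and 94.7 FPKM with MAPK13-IN-1. Of the genes called lower in the count table, Tyk2 had 19.0 and 35.1 FPKM, Irf7 2.38 and 6.22 FPKM, and Irf8 22.7 and 45.9 FPKM, DMSO first, so these were higher there, and Jak2 was nearly level at 134 and 133 FPKM.

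Of 12 inhibitors of interferon signalling, all were tested, with 3 called higher, 6 lower and 3 not called, and a median log2 fold change of -0.31. Socs1, the main brake on the interferon-gamma receptor, stood at 92.7 and 103 CPM with DMSO and 35.2 and 39.8 CPM with MAPK13-IN-1, a log2 fold change of -1.38. Cish, a related brake on cytokine receptors, stood at 382 and 403 CPM and 135 and 165 CPM (-1.39). Both were clearly lower in each inhibitor library of the count table. In the replicate 1 pair they were not: Socs1 had 71.9 FPKM with DMSO and 79.1 FPKM with MAPK13-IN-1, and Cish had 146 FPKM with DMSO and 161 FPKM with MAPK13-IN-1, with a median log2 ratio of 0.15 over the list. Usp18, Ptpn1, Ptpn2 and Pias4 were also called lower, at -0.67, -0.42, -0.40 and -0.44, and Ptpn11, Pias1 and Pias2 higher, at 0.36, 0.46 and 0.21. Pias2 lost its call in DESeq2 and without DMSO replicate 2 (0.17), DMSO replicate 3 (0.23) or MAPK13-IN-1 replicate 2 (0.17). Socs3 (-0.20), Ptpn6 (0.067) and Pias3 (-0.22) were not called. Socs3 was called without the filter, with the replicate block, without DMSO replicate 2 (-0.27) and without MAPK13-IN-1 replicate 3 (-0.40), and Pias3 without MAPK13-IN-1 replicate 3 (-0.29), whereas Ptpn6 was called with upper-quartile scaling (0.15) and with library totals alone (0.19).

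Of 29 other interferon-gamma target genes listed, 28 were found by symbol and 27 tested, with 7 called higher, 10 lower and 10 not called, and a median log2 fold change of -0.029. These calls were near the shares over all genes tested, 31.5% higher and 32.3% lower. Wars, a tRNA synthetase gene, stood at 385 and 406 CPM with DMSO and 141 and 142 CPM with MAPK13-IN-1 (-1.49), and Ly6a, a surface antigen gene, at 385 and 384 CPM and 224 and 237 CPM (-0.74). Dtx3l, a ubiquitin ligase gene, stood at 172 and 171 CPM with DMSO and 362 and 326 CPM with MAPK13-IN-1 (1.00), and Icam1, an adhesion molecule gene, at 136 and 139 CPM and 240.4 and 256 CPM (0.85). Cd74, the most abundant of the list with MAPK13-IN-1 but not with DMSO and also a B cell gene, stood at 1231 and 1176 CPM and 1921 and 1814 CPM (0.63). The falls of Wars and Ly6a were larger than any among the GTPases, whereas the rises of Dtx3l and Icam1 lay within their range. In the replicate 1 pair the list was mostly higher, with 20 genes higher, 6 lower and a median log2 ratio of 0.29, and Icam1 had 29.3 FPKM with DMSO and 119.5 FPKM with MAPK13-IN-1.

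The GTPases work together with further genes, which were described as lists, beside 31.5% called higher and 32.3% lower over all genes tested. Of 11 ATG8 conjugation genes, the machinery that helps to load the GTPases onto vacuoles, 2 were called higher and 6 lower, with a median log2 fold change of -0.26, and only 1 was called higher without DMSO replicate 2 or DMSO replicate 3. The log2 fold change was -1.50 for Map1lc3a, -0.71 for Atg3, -0.59 for Gabarapl2 and 0.49 for Atg12. In the replicate 1 pair the ATG8 list went the other way, with 8 genes higher, 3 lower and a median log2 ratio of 0.41, and Map1lc3a had 6.74 and then 11.2 FPKM. Map1lc3b, the most abundant by the mean of all 4 libraries, stood at 133 and 134 CPM with DMSO and 158 and 158 CPM with MAPK13-IN-1 and lost its higher call without either DMSO library (0.23 and 0.24). Of 7 prenylation and CaaX processing genes, which attach the lipid anchor of Gbp2 and Gbp5, 3 were called higher and 4 lower, with a median of -0.19. Only 2 of these were called lower without DMSO replicate 2, without DMSO replicate 3, with upper-quartile scaling, with library totals alone, with at least 10 counts in every library, with an adjusted p under 0.01 and in DESeq2. Rce1 had a log2 fold change of -1.28, Pggt1b of 0.73, Fntb of 0.49 and Ggps1 of -0.36, and Fdps, the most abundant, stood at 110.4 and 109 CPM and 123 and 147 CPM. Of 8 inflammasome and cell death genes, 3 were called higher (5 with library totals alone) and 2 lower, with a median of 0.13. Aim2, a DNA sensor that acts downstream of guanylate-binding proteins, stood at 27.3 and 26.7 CPM with DMSO and 94.4 and 83.3 CPM with MAPK13-IN-1 (1.72), and at 6.23 and 16.3 FPKM in the replicate 1 pair. Nlrp3 had 12 and 17 counts with DMSO and 62 and 86 counts with MAPK13-IN-1 (1.96). Gsdmd, the pore-forming protein gene, had -1.001, and Rnf213, the most abundant of the list, stood at 191 and 199 CPM and 124 and 125 CPM (-0.65). These genes, called lower in the count table, rose in the replicate 1 pair, Gsdmd from 22.4 to 39.1 FPKM and Rnf213 from 10.3 to 14.9 FPKM, where 6 genes of the list were higher and 1 lower (median 0.50). The prenylation list had a median of -0.0059 in that pair.

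Genes with the most similar profile were sought for Igtp, the immunity-related GTPase with the highest CPM. The measure was the root-mean-square distance of centred log2 CPM over the 4 libraries, among 9487 genes. The 3 nearest to Igtp were Rpl5 (0.0074), Cdc123 (0.0088) and Pgm2 (0.0094). No other GTPase was among them, and with 4 libraries many genes share such a profile.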

How the data were processed

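RNA-seq of splenic CD4+ T cells was used, with 3 DMSO and 3 MAPK13-IN-1 libraries grouped by their labels. For replicates 2 and 3 the authors deposited gene counts that are unscaled whole numbers. For the replicate 1 pair the authors deposited length-normalized values, read here as FPKM from the values, with replicate 1 numbered in accession order. The submitters' processing notes name fastp 0.21.0, HISAT2 2.1.0, StringTie 2.1.5, DESeq2 1.30.1 and mm10 for replicates 2 and 3, and FastQC and HISAT2 without versions and GRCm38 for replicate 1.

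The counts went through edgeR 4.0.16 under R 4.3.3: filterByExpr (minimum count 10, minimum total 15), which kept 16269 genes, TMM scaling with factors from 0.955 to 1.05, and the quasi-likelihood test without covariates. The edgeR code was tested on simulated counts. Standard errors were derived from the test statistic and intervals are at 95%. Nothing states that replicates were separate cultures, so p-values measure only the spread between these libraries. DMSO replicates differed beyond sampling noise (mean chi-square of 3.08 per gene), as did MAPK13-IN-1 replicates (9.60). The FPKM pair was compared with a pseudocount of 1 and without a test. The members and lists were chosen with earlier results of these data known. Named were all members, nearly all genes that passed the filter from the lists of ligands and receptors, kinases and transcription factors, and inhibitors, and of the other lists the 4 with the smallest p and the most abundant by mean over all 4 libraries. Gbp2b, Tgtp1, Tgtp2, Gbp6, Gbp8, Gbp10, Cd4, Gm4951 and genes at 0 counts were named beyond this rule, as were overlapping gene models, after their values were seen.

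Alternatives were RLE, upper-quartile and library-total scaling, no filter, at least 10 counts in every library, DESeq2 1.42.0, a replicate block, each library left out in turn (the arm left with 1 library is assumed to vary like the other), an adjusted p under 0.01, and for the pair a pseudocount of 0.1 and at least 1 FPKM in both libraries. Gene models came from GENCODE M21 and promoters from RefSeq GRCm38.p6, read with Python 3.11.15 and pandas 2.3.3, and figures were drawn with matplotlib 3.10.9. Protein sequences were not analysed here.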

Additional observations from a re-analysis of the deposited data

Results flagged for a closer look

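Gbp2, Igtp and Iigp1 were called lower in the count table, where both MAPK13-IN-1 libraries lay below both DMSO libraries, but they were not lower in the replicate 1 pair. For Gbp2 the log2 ratio of the pair was 0.53 against a log2 fold change of -0.23 in the count table, a call that was lost with library totals alone. For Iigp1 the values were 0.15 and -0.51. For Igtp they were 0.0057, with 189.9 FPKM in the DMSO library and 191 FPKM in the MAPK13-IN-1 library, and -0.31. The pair has 1 library per group and another library preparation, and the difference between the sets of libraries was not tested.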

How the results depend on the processing

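Over 12 alternatives, the 10 members kept their direction and their side of the threshold in 113 of 120 cases, with 3 calls lost and 4 gained, and no member changed sign. The number of members called lower was 2 with library totals alone, where Gbp2 and Irgm2 lost their calls. That scaling moved the median log2 fold change of all genes from 0.012 to 0.14, and the Gbp2 log2 fold change from -0.23 to -0.10. It called 6176 genes higher and 4302 lower. Without the filter the median was 0.16. Leaving out 1 library gave 5 to 6 members called higher, 3 to 4 lower, 4298 to 5268 genes higher and 4433 to 5675 lower. Uncalled genes that changed sign were Tgtp2 (0.035 with library totals alone), Irf1 (0.053 with library totals alone, 0.0083 with upper-quartile scaling) and Gm4951 (0.067 without MAPK13-IN-1 replicate 3, but -0.44 and called without MAPK13-IN-1 replicate 2). The cause of these shifts was not tested. With the replicate block, 5 members were called higher and 4 lower, and 5261 genes higher and 5384 lower. Same-numbered libraries did not deviate together (correlation across genes of -0.0064). With 2 libraries per group this cannot settle whether same-numbered libraries were paired in the experiment, and the labels do not say. A pseudocount of 0.1 left every pair ratio on its side of 0. Depth was not limiting for the members, all of which had at least 1506 counts in every library.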
